A study of Homo sapiens with 6 samples.

Results

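The genes described here encode the proteins of the cytosolic ribosome, measured by RNA-seq in EndoC-βH1 cells, a human pancreatic β cell line labelled wild type (WT). They were chosen by symbol, as protein-coding genes named RPL or RPS followed by a number, RPLP0 to RPLP2, and RPSA, with a mean of at least 1 CPM over the 6 samples. CPM are the counts of a gene divided by its library's total. For this minimum, the floor of detection and the cell type markers the total was unscaled, and for all other CPM it was scaled. Of the 84 symbols of this form, 83 met the minimum, out of 60671 identifiers in each count file and 34742 with a count in any sample. RPL10L, a retrogene copy of RPL10, had 0 counts in all 6 samples and was left out. The 83 genes comprised 51 of the large subunit (RPL) and 32 of the small subunit (RPS), lay on 21 chromosomes with 12 of them on chromosome 19, and all passed the filter on low counts.

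The study compared 3 samples treated with AZD7762, an inhibitor of the checkpoint kinases CHEK1 and CHEK2, at 1 µM with 3 samples given the vehicle DMSO. In both groups a starvation step of 1 h at 0.5 mM glucose preceded a stimulation step of 1 h, with the compound or vehicle present in both steps. The protocol names 0.5 and 20 mM glucose for stimulation, and which of these applied to each library is not given. The study's methods describe replicates of its in vitro work in general as independent, but no label says that these came from separate cultures, so the p-values measure the spread between these samples, which may be technical. All 6 samples came from 1 established line, which stands in for β cells of the islet. The libraries held 20486391 to 29402440 counts on genes, so that 3 counts, the floor of detection used here, corresponded to 0.102 to 0.146 CPM, a limit that covers counting error only. Mitochondrially encoded genes held 1.57 to 2.13% of counts with DMSO and 2.26 to 2.63% with AZD7762. The 9 β cell markers examined summed to 2478 to 3165 CPM with DMSO and 2650 to 3065 CPM with AZD7762, INS alone lying between 1026 and 1694 CPM. Of the other islet hormones SST was at 204 to 228 CPM with DMSO and 240 to 262 CPM with AZD7762, and GCG at 1.10 to 1.91 CPM. Of the 3 acinar markers PRSS1 and CELA3A were at 0. CPA1 was at 21.2 to 22.7 CPM with DMSO and 24.3 to 27.1 CPM with AZD7762. The duct marker KRT19 was at 24.1 to 30.2 CPM and the fibroblast marker COL1A1 at 10.3 to 16.1 CPM over the 6 samples.

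Ribosomal proteins are the structural and assembly subunits of the machine that translates every mRNA, and a β cell depends on it for insulin, its main secreted product. Each protein of the mature particle is needed in a fixed copy number, and their genes are known for coordinate, high expression. Most of their mRNAs start with a C followed by a run of pyrimidines, the 5′ terminal oligopyrimidine (TOP) motif, through which mTORC1 and the RNA-binding protein LARP1 set their translation and stability rather than their transcription.

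The TOP motif was looked for in the 66 of the 83 genes that had an entry in a RefSeq promoter table (GRCh38.p14). It was defined as a C followed by at least 4 pyrimidines (C or T), read on the gene's own strand. A match began exactly at an annotated start in 47 of the 66 genes (71.2%), against 5.14% of all genes in the table. Within 5 bases of a start it was found in 54 (81.8%), against 25.2% of all genes. The windows printed next each hold 10 bases before the RefSeq start and 20 bases from it on, with capitals marking the C and its pyrimidine run. They were picked to show the stalk proteins, abundant small-subunit genes, paralogs, and RPL28 and RPL35, which had the highest fold changes among abundant genes.
RPLP0, chr12:120201092-120201121, minus strand: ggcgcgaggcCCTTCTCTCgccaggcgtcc
RPLP1, chr15:69452808-69452837, plus strand: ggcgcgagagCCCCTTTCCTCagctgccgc
RPLP2, chr11:809957-809986, plus strand: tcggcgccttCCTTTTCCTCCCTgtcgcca
RPS3, chr11:75399508-75399537, plus strand: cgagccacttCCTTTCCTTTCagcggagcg
RPS6, chr9:19380217-19380246, minus strand: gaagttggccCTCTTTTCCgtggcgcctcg
RPSA, chr3:39406710-39406739, plus strand: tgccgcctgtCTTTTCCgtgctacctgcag
RPL28, chr19:55385922-55385951, plus strand: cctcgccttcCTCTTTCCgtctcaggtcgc
RPL35, chr9:124861938-124861967, minus strand: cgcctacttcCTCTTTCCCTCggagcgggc
RPL22, chr1:6199576-6199605, minus strand: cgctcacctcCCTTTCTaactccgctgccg
RPL22L1, chr3:170870176-170870205, minus strand: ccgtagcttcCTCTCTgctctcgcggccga
RPS27, chr1:153990752-153990781, plus strand: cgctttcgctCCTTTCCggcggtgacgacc
RPS27L, chr15:63157458-63157487, minus strand: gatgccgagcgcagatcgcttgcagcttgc
RPL7L1, chr6:42879606-42879635, plus strand: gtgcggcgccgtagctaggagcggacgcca

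RPL22L1 carried the motif at its start like its partner RPL22, whereas RPS27L and RPL7L1 had no match within 5 bases of theirs. The others without a match within 5 bases were RPL6, RPL9, RPL15, RPL17, RPL26L1, RPL27, RPS4X, RPS15, RPS26 and RPS29, and the starts used in these cells were not measured. The 17 genes with no entry included RPL5, RPL7 and RPL8.

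As a group, the ribosomal protein genes held about the same share of the RNA in both treatments. In the DMSO samples they took 2.38, 2.15 and 2.14% of all counts, and in the AZD7762 samples 2.46, 2.32 and 2.14%. The means were 2.22% ± 0.137 and 2.31% ± 0.163 (SD, n = 3 each), and the groups overlapped. The 95% Wilson interval of each share was at most ±0.00637 percentage points, which covers counting error only, so the spread between replicates was many times the counting error. Large-subunit genes held 1.35% ± 0.0703 of counts with DMSO and 1.40% ± 0.0907 with AZD7762, and small-subunit genes 0.874% ± 0.0666 and 0.905% ± 0.0724. The ratio of large-subunit to small-subunit counts was 1.51, 1.56 and 1.58 with DMSO and 1.54, 1.52 and 1.58 with AZD7762. These are shares of polyadenylated RNA in bulk samples, in which fewer cells of a type and less RNA per cell cannot be told apart.

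In CPM, which is not corrected for length, the genes spanned a 691-fold range, from 1.25 CPM for RPL36A to 863 CPM for RPL3. Of the 83 genes, 68 exceeded 100 CPM, 10 lay between 10 and 100 CPM, and 5 were under 10 CPM. RPL3, which reaches towards the peptidyl transferase centre, measured 888, 821 and 834 CPM with DMSO and 934, 869 and 833 CPM with AZD7762. RPS3, a small-subunit protein at the mRNA entry channel, measured 909, 793 and 751 CPM with DMSO and 951, 903 and 791 CPM with AZD7762. In each of these genes the 2 treatments overlapped.

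Per kilobase of merged exons, RPS12 had the highest mean level (675.7 CPM per kb), and RPL8 (345), RPL7A (277) and RPS21 (257) were also among the highest 5. By the length of the Ensembl canonical transcript, a measure chosen after the data had been seen because merged exons of several genes include long retained introns, the highest 5 included RPS24 (997 CPM per kb), RPS12 (858), RPL19 (793) and RPS18 (761.9). RPS12 stood among the highest 5 by both lengths, RPL8, RPL7A and RPS21 by merged exons alone. On the canonical scale the median was 249.9 CPM per kb with an interquartile range of 90.4 to 436. The lowest by merged exons included RPL36A (0.32 CPM per kb), RPL3L (0.54), RPL39L (2.37) and RPL17 (2.98).

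Low values need care in this family, because its genes have many near-identical processed copies among which counting can split or discard reads. Annotated pseudogenes named after 78 of the 83 genes numbered 1596, with a median of 12 per gene and a maximum of 133 for RPL21. They held 0.161 to 0.187% of all counts in a sample. For RPL36A the pseudogenes took 98.2% of the counts of gene and copies together, for RPL17 75.8% and for RPL21 48.8%, so the levels of these 3 genes are uncertain. Exons of 46 genes also overlapped those of another gene on either strand, RPL17 by 32.9% and RPS10 by 31.5% of their length on the same strand and RPL10 by 50.4% on the opposite strand. Whether reads were counted by strand is not given in the sources used here.

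**Figure D1:**
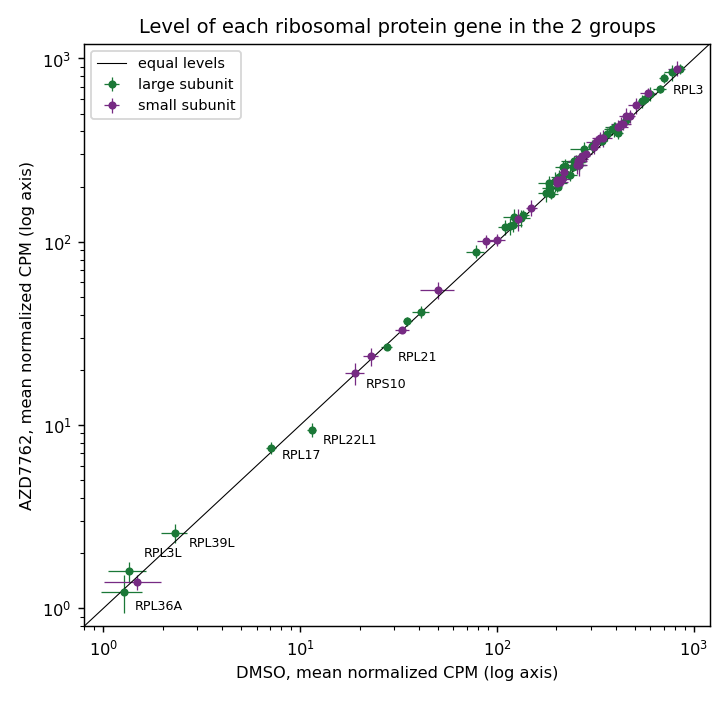
Mean normalized CPM of each of the 83 ribosomal protein genes with DMSO (horizontal, log axis) and AZD7762 (vertical, log axis), with bars of ±1 SD over 3 samples; green points are large-subunit and purple points small-subunit genes. The points lie along the line of equal levels from RPL36A at 1.25 CPM to RPL3 at 863 CPM, and RPL22L1 sits visibly below it.

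The main comparison asked whether AZD7762 changed the mRNA of any ribosomal protein. None of the 83 genes passed the test (edgeR quasi-likelihood, Benjamini-Hochberg over all 17649 genes tested, threshold 0.05), while 125 genes, or 0.708% of all tested, did. Those were 0.357% higher and 0.351% lower with AZD7762. The smallest adjusted p among the 83 was 0.257. At an unadjusted p under 0.05 there were 7, of which 6 were higher with AZD7762 and 1 lower, against 9.68% of all genes (4.43% higher and 5.25% lower). DESeq2's Wald test and edgeR's likelihood ratio test each called 0 of the 83 as well and put 8 under an unadjusted p of 0.05. With no filter on low counts edgeR called 1 of the 83, RPL28 (adjusted p = 0.0277), beside 0.95% of all genes.

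The fitted log2 fold changes were small, between -0.28 and 0.25. Of the 83, 52 were under 0.1 in size and 78 under 0.2. The 95% interval lay within ±0.5 on the log2 scale for 79 genes, including all 68 with over 100 CPM, whose half-widths reached at most 0.219. It lay within ±0.25 for 36 genes. At these depths the lowest count of any gene over 100 CPM in any sample was 1950, and the lowest of any of the 83 was 20.

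Although no single gene was called, the values lay to one side of 0. The log2 fold change was above 0 in 74 of 83 genes (89.2%), against 52.4% of all genes tested, with a median of 0.07 beside 0.01 for all genes. Among large-subunit genes 44 of 51 were above 0 (median 0.08), and among small-subunit genes 30 of 32 (median 0.07). Without AZD7762 replicate 1 these were 34 of 51 (median 0.04) and 16 of 32 (median -0.000203). The genes vary together between samples, so this count is not 83 separate observations. The median without DMSO replicate 1 was 0.13 with 77 genes above 0, without DMSO replicate 3 it was 0.04 with 59, without AZD7762 replicate 1 it was 0.02 with 50, and without AZD7762 replicate 3 it was 0.14 with 79. With library totals as the only scaling the median was 0.04 with 63 genes above 0, beside -0.03 for all genes. With scaling factors computed without these genes and the mitochondrially encoded genes it was 0.07 with 74 above 0.

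**Figure D2:**
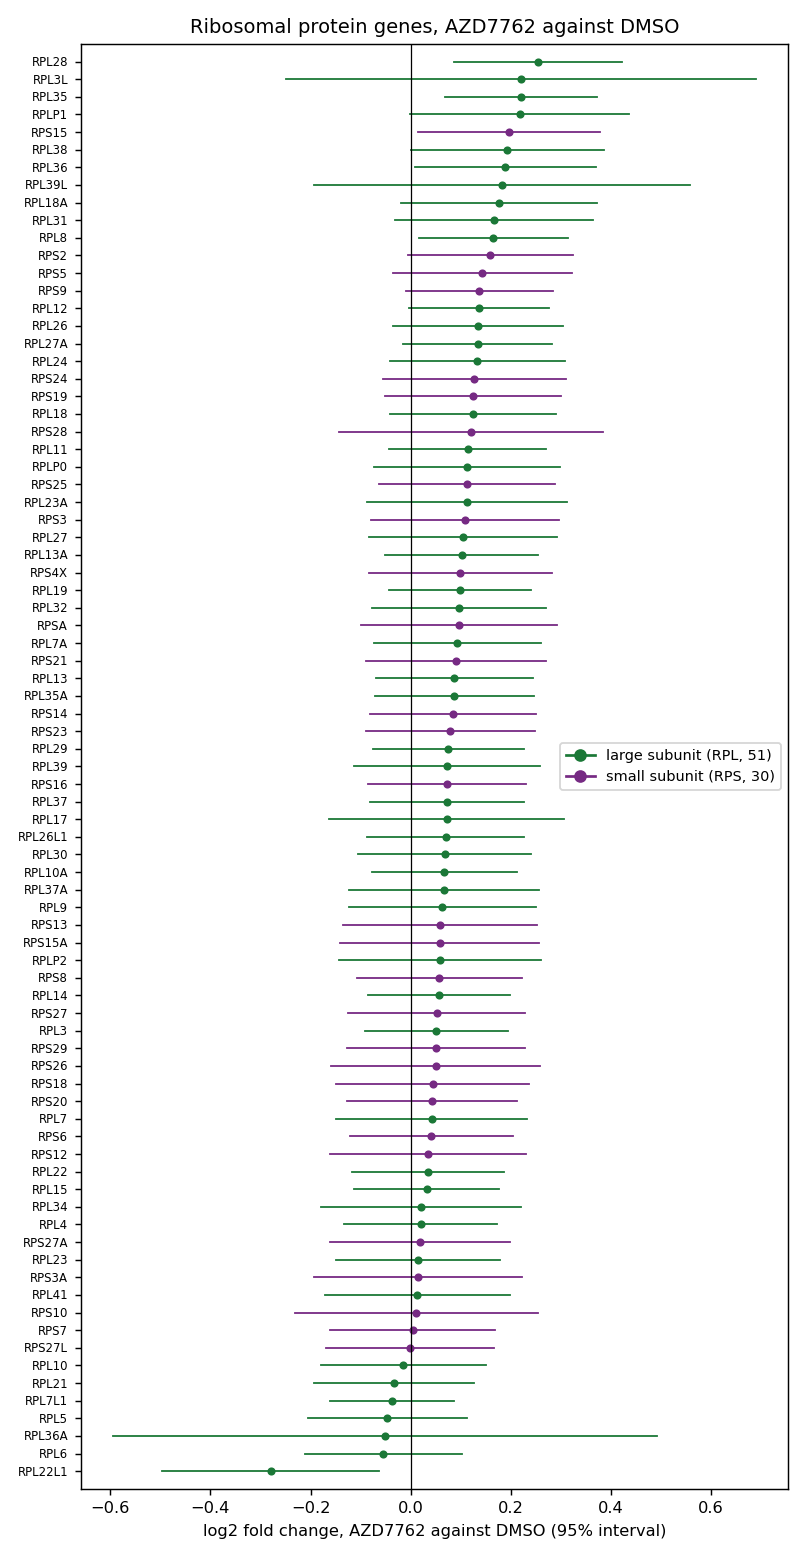
Log2 fold change of AZD7762 against DMSO for 81 of the 83 genes (points) with the 95% interval (bars), ordered from the highest at the top; green is the large and purple the small subunit. Most points lie between 0 and 0.2, RPL28 and RPL35 stand among the highest, RPL22L1 is the lowest, and RPL3L and RPL36A have the widest intervals shown.

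RPL28 had the highest fold change. This large-subunit gene, on chr19:55897300-55914618 of GRCh37 (plus strand), measured 221, 194 and 232 CPM with DMSO and 277, 240 and 254 CPM with AZD7762. All AZD7762 values lay above all DMSO values. The log2 fold change was 0.25 ± 0.0769 (SE, 95% interval 0.09 to 0.42, adjusted p = 0.257 by edgeR).

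RPL35, whose product sits near the exit of the peptide tunnel, lies on chr9:127620159-127624260 of GRCh37 (minus strand). It measured 230, 214 and 223 CPM with DMSO and 283, 256 and 237 CPM with AZD7762, again without overlap. Its log2 fold change was 0.22 ± 0.0698 (SE, adjusted p = 0.290 by edgeR). RPL8, a protein of the peptidyl transferase region, measured 721, 659 and 724 CPM against 844, 752 and 764 CPM, a difference of 0.17 on the log2 scale (adjusted p = 0.463 by edgeR). RPL28, RPL35 and RPL8 were the 3 genes with all AZD7762 samples above all DMSO samples, an order found in 6.79% of all genes. A separation in either direction occurred in 4 of the 83 genes (4.82%), against 15% of all genes tested.

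RPS15, a small-subunit gene near the decoding site, measured 95.3, 77.4 and 91.9 CPM with DMSO and 109, 92.5 and 102 CPM with AZD7762, and the groups overlapped through DMSO replicate 1. Its log2 fold change was 0.20 (adjusted p = 0.474 by edgeR). RPL36 and RPL38, named here after their values were seen because they complete the set of 7 at an unadjusted p under 0.05, both had a log2 fold change of 0.19, with adjusted p = 0.488 and 0.515 by edgeR. RPL36 measured 76.9, 70.1 and 86.3 CPM with DMSO and 94.0, 80.3 and 91.2 CPM with AZD7762. RPL38, known for its influence on the translation of Hox mRNAs, measured 206, 176 and 166 CPM against 223, 216 and 186 CPM.

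RPL22L1 had the lowest fold change and was the only one of the 83 with all AZD7762 samples below all DMSO samples, against 8.25% of all genes. It lies on chr3:170582664-170587997 of GRCh37 (minus strand) and encodes a paralog of RPL22, whose protein is known to limit RPL22L1 mRNA. The gene measured 12.1, 10.9 and 11.3 CPM with DMSO and 9.17, 8.78 and 10.4 CPM with AZD7762. The log2 fold change was -0.28 ± 0.0999 (SE, 95% interval -0.50 to -0.06, adjusted p = 0.368 by edgeR), and over the alternatives it lay between -0.35 and -0.24. RPL22 itself measured 144, 138 and 126 CPM with DMSO and 145, 144 and 129 CPM with AZD7762, or 0.03 on the log2 scale (adjusted p = 0.915 by edgeR). RPL22L1 made up 7.74, 7.34 and 8.25% of the summed CPM of the pair, not corrected for length, with DMSO and 5.95, 5.75 and 7.44% with AZD7762, with overlap.

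In the other paralog pairs no gene passed the test, and RPL3L and RPL39L were far below their partners. RPL3L, the striated muscle form of RPL3, measured 1.35, 1.65 and 1.05 CPM with DMSO and 1.59, 1.80 and 1.41 CPM with AZD7762, which was 0.160 and 0.182% of the pair on average. RPL39L, best known from the testis, measured 2.33, 1.95 and 2.63 CPM against 2.90, 2.56 and 2.30 CPM, while RPL39 lay between 106 and 134 CPM. Per kilobase of canonical transcript, RPL3 was 968-fold above RPL3L and RPL39 90.9-fold above RPL39L.

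RPS27L, a paralog of RPS27 known as a p53 target, measured 35.1, 34.1 and 29.9 CPM with DMSO and 34.5, 32.6 and 31.9 CPM with AZD7762. Its log2 fold change was 0.00 with a 95% interval within ±0.25. It formed 13.4% ± 0.644 of the RPS27 pair with DMSO and 13.0% ± 0.667 with AZD7762. RPL26L1 measured 37.2, 34.6 and 33.4 CPM against 38.9, 36.8 and 34.8 CPM, or 24.2% ± 0.613 and 23.4% ± 0.714 of its pair with RPL26. RPL7L1, a relative of RPL7, was the one paralog with more CPM than its partner, at 198, 213 and 200 CPM with DMSO and 195, 198 and 203 CPM with AZD7762. RPL7 lay between 105 and 132 CPM and, per kilobase of canonical transcript, was 2.21-fold above RPL7L1. Pseudogenes took 17.5% of the counts of RPL7 and its copies together. For the partners of the 6 paralogs this ranged from 8.04% (RPL3) to 22.5% (RPL39). For the paralogs themselves it was at most 0.368% (RPL7L1), so the shares and ratios of the pairs are uncertain. Without these 6 paralogs, 71 of 77 genes were above 0 with a median log2 fold change of 0.08.

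**Figure D3:**
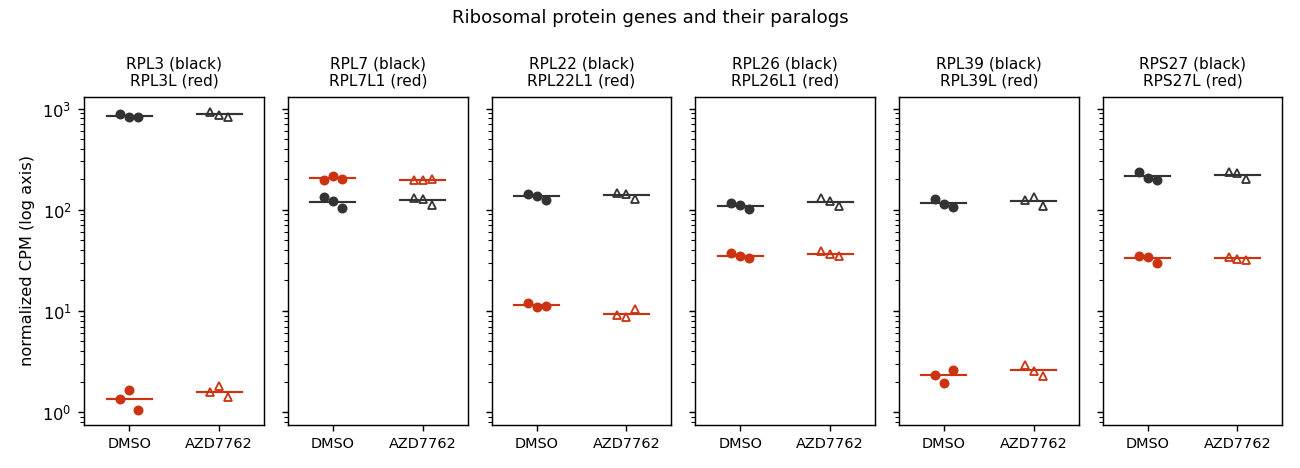
Normalized CPM (log axis) of 6 ribosomal protein genes (black) and their paralogs (red) in the 3 DMSO samples (filled circles) and 3 AZD7762 samples (open triangles), with a line at each mean. RPL22L1 is the only paralog whose 3 AZD7762 samples all lie below its 3 DMSO samples, and RPL7L1 the only one with more CPM than its partner.

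The stalk proteins RPLP0, RPLP1 and RPLP2 recruit translation factors to the large subunit. RPLP1 measured 281, 231 and 317 CPM with DMSO and 354, 302 and 308 CPM with AZD7762, overlapping through DMSO replicate 3, and its log2 fold change of 0.22 had an adjusted p = 0.518 by edgeR. RPLP0 measured 859, 750 and 721 CPM against 891, 881 and 746 CPM (0.11 on the log2 scale), and RPLP2 206, 176 and 223 CPM against 235, 203 and 191 CPM (0.06). The 3 stalk genes therefore did not share 1 pattern over the samples: RPLP0 was highest in replicate 1 of the DMSO group and RPLP1 and RPLP2 in replicate 3.

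RPL5 and RPL11 form, with 5S rRNA, the particle that binds MDM2 when ribosome assembly is disturbed. RPL5 measured 202, 193 and 170 CPM with DMSO and 187, 190 and 169 CPM with AZD7762, or -0.05 on the log2 scale. RPL11 measured 407, 388 and 351 CPM against 430, 430 and 380 CPM, a log2 fold change of 0.11. Neither passed the test, with adjusted p = 0.888 for RPL5 and 0.658 for RPL11 by edgeR. RPL6, another large-subunit protein linked to MDM2, measured 428, 420 and 378 CPM against 423, 394 and 363 CPM, a log2 fold change of -0.06.

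RPS6, the substrate of the S6 kinases, measured 504, 469 and 442 CPM with DMSO and 514, 503 and 439 CPM with AZD7762 (0.04 on the log2 scale). RPSA, also known as a laminin receptor, measured 386, 337 and 314 CPM against 399, 386 and 324 CPM (0.10). RPS14 and RPS19, whose loss of dosage causes anaemia, had log2 fold changes of 0.08 and 0.12. In RPS6, RPSA and RPS14, replicate 1 was the highest and replicate 3 the lowest sample of both groups. RPS27A, made as a fusion with ubiquitin, measured 228, 207 and 190 CPM against 227, 217 and 189 CPM (0.02), and RPS4X, the X-linked form of eS4, 496, 446 and 418 CPM against 516, 513 and 428 CPM (0.10). RPL41, which encodes the smallest protein of the ribosome, and RPL10, which joins the large subunit late, had log2 fold changes of 0.01 and -0.01.

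The replicates showed a pattern that ran through most of the family. DMSO replicate 1 was the highest of its group in 68 of 83 genes and AZD7762 replicate 1 in 70, and AZD7762 replicate 3 was the lowest of its group in 70. Replicate 3 was the lowest DMSO sample in 54 genes and replicate 2 in 27. The median deviation of the 83 genes from their own means was 0.08, -0.07 and -0.13 on the log2 scale in the DMSO samples and 0.14, 0.05 and -0.08 in the AZD7762 samples. Over all tested genes the same median stayed between 0.00108 and 0.00765. The scaling of the libraries is built to centre most genes on no change, so this value is not a separate result.

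This spread within a treatment exceeded the difference between treatments. The median ratio of the highest to the lowest sample of a group was 1.19-fold with DMSO and 1.17-fold with AZD7762, whereas the median fold between the group means was 1.05. These are unlike measures, as a range over single samples tends to exceed a ratio of means. The median within-group SD was 0.127 on the log2 scale for the 83 genes and 0.0703 for the 1422 other genes with a mean CPM of 132 to 366, the interquartile range of the family.

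**Figure D4:**
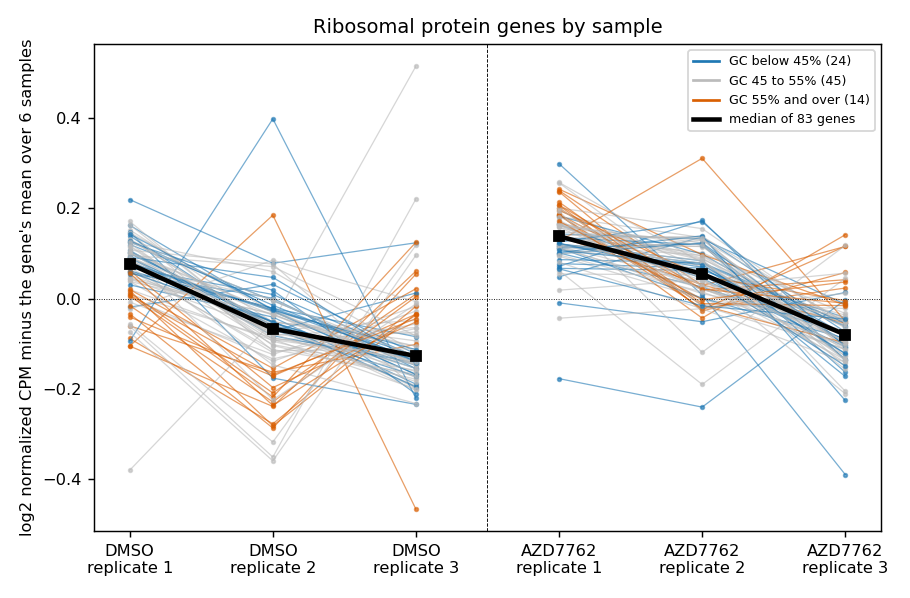
Deviation of each of the 83 genes from its own mean over the 6 samples (log2 normalized CPM, vertical) by sample (horizontal), coloured by the GC content of the canonical transcript, with black squares at the median of the 83 genes; lines join the values of a gene within a group and imply no order of replicates. The medians of the DMSO samples (0.08, -0.07 and -0.13) span more than the distance between the groups, and GC-rich genes (orange) lie low in DMSO replicate 2 and high in AZD7762 replicate 1.

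Base composition moved with the fold change inside the family. The 14 genes with a GC content of 55% or more had a median of 0.16 on the log2 scale, all 14 were above 0, and they included RPL8, RPL28, RPL35, RPL36 and RPS15, 5 of the 7 genes at an unadjusted p under 0.05. The 45 genes between 45 and 55% had a median of 0.08 with 40 above 0, and the 24 genes below 45%, which included RPL22L1, had 0.05 with 20 above 0. Other tested genes had medians of 0.07, 0.01 and -0.03 in the same classes, from GC-rich to GC-poor. With offsets for GC content and length fitted to each library, the medians of the GC-rich, middle and GC-poor classes were 0.10, 0.06 and 0.07. The middle and GC-poor classes thus changed order. The median of all 83 genes was 0.08 with 75 above 0, beside 0.02 for all genes tested in that fit. Measured from the median of all genes, the 83 genes lay at 0.065 without the offsets and 0.055 with them. The GC-rich class lay at 0.155 and 0.073. The ratio of summed CPM of GC-rich to GC-poor ribosomal protein genes was 0.628, 0.600 and 0.740 with DMSO and 0.715, 0.641 and 0.732 with AZD7762, and that of other genes 0.506, 0.476 and 0.568 against 0.574, 0.508 and 0.565. In both sets DMSO replicate 2 had the lowest ratio. Without DMSO replicate 2 the median of the GC-rich genes was 0.08 with 13 above 0, and without AZD7762 replicate 1 that of the GC-poor genes was -0.01 with 11 above 0.

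Values were also set beside the TOP motif. The 54 genes with the motif within 5 bases of a start had a median of 0.09 on the log2 scale, with 50 above 0, and the 12 without it 0.06 with 9 above 0. RPL28, RPL35, RPL36 and RPL38, all higher with AZD7762, and RPL22L1, lower, were the genes among the former at an unadjusted p under 0.05, and RPS15 was the 1 among the latter. The difference between the 2 sets was not tested.

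Ribosomal genes that the symbol rule leaves out gave values of the same sign. FAU, which encodes a ubiquitin-like protein fused to eS30, measured 118, 102 and 119 CPM with DMSO and 143, 127 and 130 CPM with AZD7762. All AZD7762 values lay above all DMSO values, and its log2 fold change of 0.24 had an adjusted p = 0.271 by edgeR. RPL36AL had a log2 fold change of 0.13 and RACK1, the scaffold on the head of the small subunit, 0.09, and neither FAU nor these genes passed the test.

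Among the other TOP mRNAs, which encode translation factors and related proteins, 24 of 25 were tested, 0 were called, 17 were above 0 and the median was 0.04. FAU was the only 1 of this list at an unadjusted p under 0.05. Of all genes tested, 0.708% were called, 52.4% were above 0 and 9.68% were at an unadjusted p under 0.05. EEF1A1, the elongation factor that delivers aminoacyl-tRNA, measured 2100, 1928 and 1807 CPM with DMSO and 2137, 2192 and 1856 CPM with AZD7762, or 0.08 on the log2 scale. Of the mitochondrial ribosomal proteins, 77 of 78 were tested, 0 were called, 62 were above 0 and the median was 0.06. At an unadjusted p under 0.05 there were 7 of the 77, all higher with AZD7762, beside 9.68% of all genes (4.43% higher). MRPL52 had the highest log2 fold change among these 7 (0.23, adjusted p = 0.409 by edgeR). Leaving out each sample in turn moved the median of the other TOP mRNAs between 0.01 and 0.08 and that of the mitochondrial ribosome between 0.03 and 0.09.

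The 47 ribosome biogenesis genes tested were centred near the median of all genes, with 26 above 0, a median of 0.01 and 0 called. Of all genes 52.4% were above 0. NHP2 and EIF6 (0.16 and 0.15) and TAF1B (-0.19) were at an unadjusted p under 0.05, beside 9.68% of all genes. Of the 20 genes of mTORC1 and translation control, 13 were above 0, the median was 0.03 and 0 were called. EIF4EBP1 and RPS6KB2 (0.20 and 0.15) and EEF2K (-0.25) were at an unadjusted p under 0.05, beside 9.68% of all genes. All AZD7762 samples lay above all DMSO samples in 3 of the 20 and below them in 2. Among all genes these orders occurred in 6.79% and 8.25%. MTOR and LARP1 had log2 fold changes of 0.02 and 0.03. EEF2K, the kinase that inhibits elongation factor 2 and a gene named after its values were seen, measured 44.4, 44.6 and 41.1 CPM with DMSO and 38.2, 34.6 and 36.6 CPM with AZD7762. The groups did not overlap, and the log2 fold change was -0.25 (adjusted p = 0.195 by edgeR). EIF4EBP1, which encodes a translation repressor under mTORC1, was also chosen on its values. It measured 63.1, 59.9 and 61.8 CPM against 79.1, 65.4 and 68.1 CPM, and its log2 fold change of 0.20 had an adjusted p = 0.385 by edgeR.

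The snoRNA host genes, many of which also carry TOP motifs, lay on the other side of 0. Of 13 tested, 11 were below 0, the median was -0.11 and 0 were called at the threshold. Of all genes tested 52.4% were above 0 and 0.708% were called. Over all alternatives the median stayed between -0.15 and -0.05, while that of the 83 ribosomal protein genes stayed between 0.02 and 0.14. SNHG12, named after its values were seen, measured 2.06, 2.24 and 3.11 CPM with DMSO and 1.07, 1.09 and 1.64 CPM with AZD7762, and all AZD7762 values lay below all DMSO values. Its log2 fold change was -0.95 ± 0.232 (SE, adjusted p = 0.124 by edgeR). GAS5 and SNHG29, at 30.05 and 157.5 CPM with DMSO, were the 2 hosts above 0, with log2 fold changes of 0.01 and 0.09, while SNHG1 and ZFAS1, at 28.5 and 25.6 CPM, were at -0.18 and -0.11. The difference between this list and the ribosomal protein genes was not tested.

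**Figure D5:**
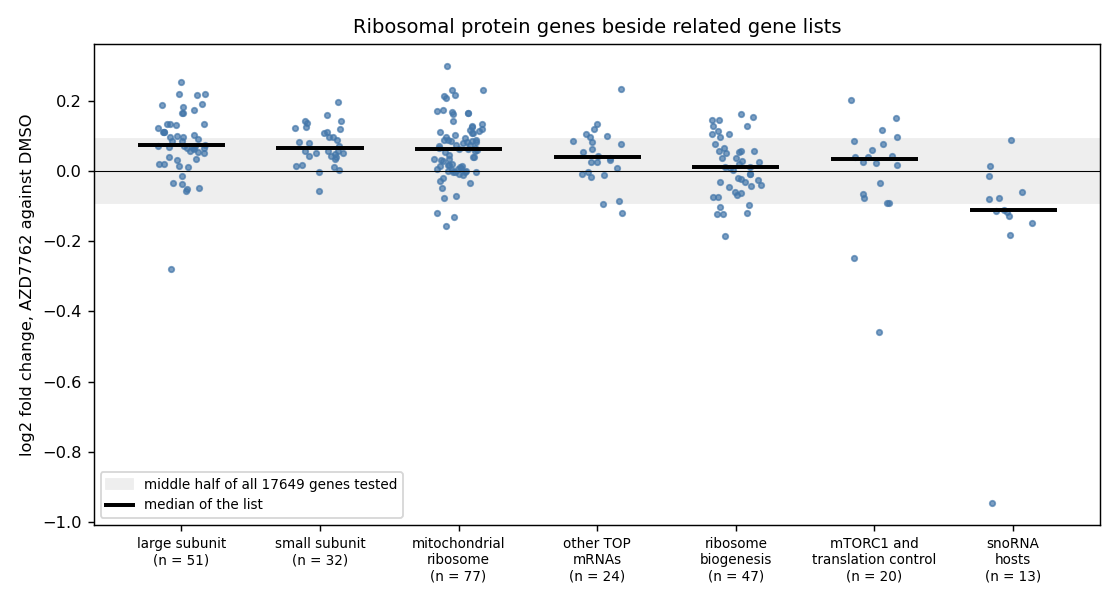
Log2 fold change of AZD7762 against DMSO for each gene (points, spread sideways for visibility) of the large and small subunit and of 5 related lists, with black lines at the list medians and a grey band from the lower to the upper quartile of all genes tested. The medians of the subunits (0.08 and 0.07) and of the mitochondrial ribosome (0.06) lie above 0 within the band, and that of the snoRNA hosts (-0.11) lies below it.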

How the data were processed

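RNA-seq of polyadenylated RNA was performed on 3 DMSO and 3 AZD7762 samples, grouped by the deposited titles. Libraries were made with the TruSeq RNA v2 or TruSeq Stranded mRNA kit, without a statement of which kit served which sample, and sequenced as paired 51-base reads. The authors checked and trimmed reads (FastQC 0.10.1 and cutadapt 1.18 in the submitters' processing notes), made alignments to GRCh37 and obtained counts per gene from HTSeq-count. These raw counts were deposited per sample, without normalization or a filter. Symbols, lengths and positions came from GENCODE release 44 lifted to GRCh37, which matched 58646 of 60671 identifiers (96.7%), and promoter sequences from RefSeq (GRCh38.p14).

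The software was R 4.3.3, edgeR 4.0.16 (filterByExpr, TMM factors of 0.983 to 1.02, quasi-likelihood fit on treatment alone, Benjamini-Hochberg over 17649 genes), limma 3.58.1 and DESeq2 1.42.0. Normalized CPM are counts over the TMM-scaled library total. Tests are two-sided, and the scripts were tested on simulated data. Replicates of a group differed by more than sampling noise (chi-square per gene 4.92 to 9.53), and the biological coefficient of variation was 7.15%.

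The members and the lists were chosen with earlier results of these data known. Genes named were any called member, the 5 highest and 5 lowest by fold change and by CPM per kb of merged exons, paralog pairs, 14 genes fixed by role, and ribosomal genes outside the symbol rule, some of which are not reported here, and others are marked as chosen on their values. Alternatives were other scalings, filters and tests, a replicate block, GC and length offsets, added pseudogene counts and leaving out each sample.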

Additional observations from a re-analysis of the deposited data

How the results depend on the processing

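Of the 83 ribosomal protein genes, 0 were called under other scalings (RLE, upper quartile, totals only, or without these genes and mitochondrial genes), a minimum of 10 counts, DESeq2, the likelihood ratio test, GC and length offsets, added pseudogene counts, and each of 6 leave-one-out fits. With no filter on low counts 1 was called (RPL28, adjusted p = 0.0277 by edgeR), beside 330 genes (0.95%) in all. With the replicate number as a block 4 were called, namely RPL28, RPL35, RPS15 and RPL38 (adjusted p = 0.0102, 0.0294, 0.0457 and 0.0469 by edgeR), beside 378 genes (2.14%), and outside the symbol rule FAU (0.0207). No label says that the numbers pair the samples, and the deviations of same-numbered samples correlated at 0.0533, 0.124 and 0.210 across genes, with DMSO replicate 1 closest to AZD7762 replicate 2 (0.175). Genes called in all numbered 267 with the likelihood ratio test and 237 with GC and length offsets. Leaving out each sample gave 77 to 168 genes called, the 77 without AZD7762 replicate 1, and for the 83 genes medians of 0.02 to 0.14 with 50 to 79 above 0. With pseudogenes the family held 2.39 and 2.48% of counts. The cause of these shifts was not tested.

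The sign changed in 42 of 748 pairs of a named gene and an alternative, 32 of them on leaving out 1 sample, in 18 genes with a log2 fold change of at most 0.0905 in size. With library totals only, RPL22, RPL41, RPS12 and RPS27A were at -0.00112, -0.022, -0.000794 and -0.017, and with upper-quartile factors RPL41 was at -0.00433. GC and length offsets put RPL7L1 at 0.000850 and RPS27L at 0.059, the block put RPS27L at 0.000320, and pseudogene counts put RPL17 at -0.012 and RPL36A at 0.14. Leaving out each sample gave ranges of -0.0740 to 0.0492 for RPL10, -0.0165 to 0.0878 for RPL22, -0.00279 to 0.0891 for RPL3, -0.248 to 0.154 for RPL36A, -0.00365 to 0.154 for RPL39, -0.0477 to 0.0826 for RPL41, -0.111 to 0.00467 for RPL5, -0.119 to 0.000759 for RPL6, -0.0428 to 0.111 for RPL7, -0.0422 to 0.139 for RPLP2, -0.0348 to 0.122 for RPS12, -0.000174 to 0.151 for RPS21, -0.00323 to 0.123 for RPS27, -0.0471 to 0.0942 for RPS27A, -0.0637 to 0.0332 for RPS27L and -0.0101 to 0.11 for RPS6. SNHG12 passed the threshold with no filter, the likelihood ratio test, the block, and GC and length offsets (adjusted p = 0.00122, 0.00847, 0.0157 and 0.0406 by edgeR). By the longest coding transcript 3, and by the canonical transcript 2, of the highest 5 genes per kilobase were shared with the order by merged exons. Under library totals only, the medians of the ribosome biogenesis and the mTORC1 lists were at -0.02 and -0.00131, and that of small-subunit genes without AZD7762 replicate 1 was -0.000203.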
